A study of Drosophila melanogaster with 6 samples.

Results

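Rab proteins are small GTPases that mark the membranes of the cell and steer vesicles between them. Each Rab cycles between an active, GTP-bound form on a membrane and an inactive, GDP-bound form in the cytosol. Exchange factors (GEFs) switch it on, GTPase-activating proteins (GAPs) switch it off, and effectors such as tethers and motors carry out its work. In endocrine and neuronal cells, Rabs of the secretory pathway take part in the making, maturation and release of vesicles loaded with peptide hormones. Enteroendocrine cells (EEs), the hormone-producing cells of the gut epithelium, were the cells profiled here.

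The genes described are those of the count table whose symbol starts with Rab and a digit, or RabX and a digit, except *Rab3*, and which reached 10 counts in at least 3 of the 6 samples. The symbol pattern matched 33 genes, and 25 of them passed the count minimum, of 17558 genes in the table. The pattern takes names and not functions, so the 25 members hold 23 Rab GTPases and 2 regulators of Rab3, the exchange factor *Rab3-GEF* and *Rab3-GAP*. *Rab32* is listed under its older symbol *ltd* and is therefore outside the members.

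RNA was sequenced from EEs of adult female flies, 3 control samples of genotype ProsV1-Gal4ts>UAS-GFP and 3 *pros*-depleted samples that also carried *pros-RNAi*. For *pros*-depleted replicates 2 and 3 the labels write Gal5ts and Gal6ts where those of replicate 1 and the controls have Gal4ts. Flies 5 to 7 days old were moved to 29 °C for 7 days, which frees the driver from its temperature-sensitive repressor in both groups, and about 20000 living GFP+ cells were sorted per sample from the pooled guts of many flies. The driver is active in cells that express *pros*, so the GFP used for sorting and the hairpin against *pros* were made in the same cells, and the comparison asks what EEs lose or gain when this homeodomain transcription factor is depleted in the adult gut.

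The samples held 27183747 to 40766059 counts on genes. The targeted gene *pros* ranged from 15349 to 29060 counts in the controls and from 3756 to 5183 counts after depletion. Of 10 EE markers in the table (hormones, the convertase *amon* and *pros*), 9 were called lower, and their summed level was 94142 to 104070 CPM in control and 6496 to 10860 CPM in *pros*-depleted samples (CPM, the count scaled to a common library size after TMM). The 5 progenitor markers summed to 199 to 278 CPM and to 468 to 673 CPM, with 2 called higher, and the 11 enterocyte markers to 3044 to 6776 CPM and to 5709 to 12546 CPM, with 4 called higher. The 8 visceral muscle markers summed to 470 to 682 CPM and to 770 to 892 CPM, nearly all of it from *Tm1*, with 1 called lower (*up*) and 0 higher. The 4 blood cell markers summed to 14.2 to 32.6 CPM and to 8.30 to 13.1 CPM, with 0 called by edgeR, 2 lower at an unadjusted p under 0.05 and 1 called by DESeq2. No marker in the table was at 0 in all samples. In sorted populations such as these, fewer cells of a type and less RNA per cell cannot be told apart.

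In control EEs the Rab GTPases of the core secretory and endosomal routes were among the most abundant members. Levels are compared between genes in RPKM, which divides CPM by exon length in kilobases. *Rab2*, which acts at the Golgi and in the maturation of dense-core vesicles, was the highest, with 378, 441 and 334 RPKM in control replicates 1, 2 and 3, above 97.6% of all genes tested. It was followed by *Rab7* of late endosomes and lysosomes, at 152 ± 21.5 RPKM (SD, n = 3), and by *Rab5* of early endosomes, at 144 ± 3.93 RPKM (SD, n = 3). These endosomal Rabs overlapped each other and lay below every *Rab2* value. In CPM, before division by exon length, their order was reversed, with control means of 452 for *Rab5* and 258 for *Rab7*. *Rab7*, with 127 RPKM in control replicate 3, also reached into the range of the genes below, and *Rab5* did not.

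The next level held *Rab1*, needed for traffic from the endoplasmic reticulum to the Golgi (127 ± 9.07 RPKM, SD, n = 3), *Rab4*, which returns cargo from early endosomes (116 ± 5.98 RPKM, SD, n = 3), *Rab18*, found on the endoplasmic reticulum and lipid droplets in mammals (99.6 ± 12.4 RPKM, SD, n = 3), and *Rab11* of recycling endosomes (86.1 ± 1.14 RPKM, SD, n = 3). In this order each gene overlapped its neighbour in range. *Rab6* of the Golgi (73.4 ± 5.85 RPKM, SD, n = 3) and *Rab14* of endosomes and the Golgi (65.5 ± 6.95 RPKM, SD, n = 3) came below them. A gap followed, down to 26.5 ± 3.21 RPKM (SD, n = 3) for *Rab8*, a Rab of transport from the Golgi to the plasma membrane. From *Rab8* the levels ran without a break through *Rab39*, *Rab19*, *Rab10*, *RabX1*, *Rab30*, *Rab21* and *Rab9*, the last at 10.2 ± 0.119 RPKM (SD, n = 3).

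*Rab26*, which marks secretory granules and synaptic vesicles in mammals, stood at 6.98 ± 0.567 RPKM (SD, n = 3), above 55.0% of all genes tested. *Rab27*, known in mammals for the docking of secretory granules, was near the bottom with 30, 22 and 74 counts in the control samples, and *RabX6* was the lowest member with 23, 20 and 24 counts. *Rab27* and *RabX6*, the members just inside the count minimum, reached 10 counts in 4 samples each, the controls and *pros*-depleted replicate 3. Of the 8 genes below it, *Rab9Fa* reached 10 counts in 1 sample and *Rab23* had at most 7 counts. *Rab9D*, *Rab9Db*, *Rab9E* and *Rab9Fb* had at most 4, 3, 1 and 8 counts, and *RabX2* and *RabX5* had 0 counts in all 6 samples, where a floor of 3 counts corresponds to 0.0755 to 0.110 CPM.

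**Figure D1:**
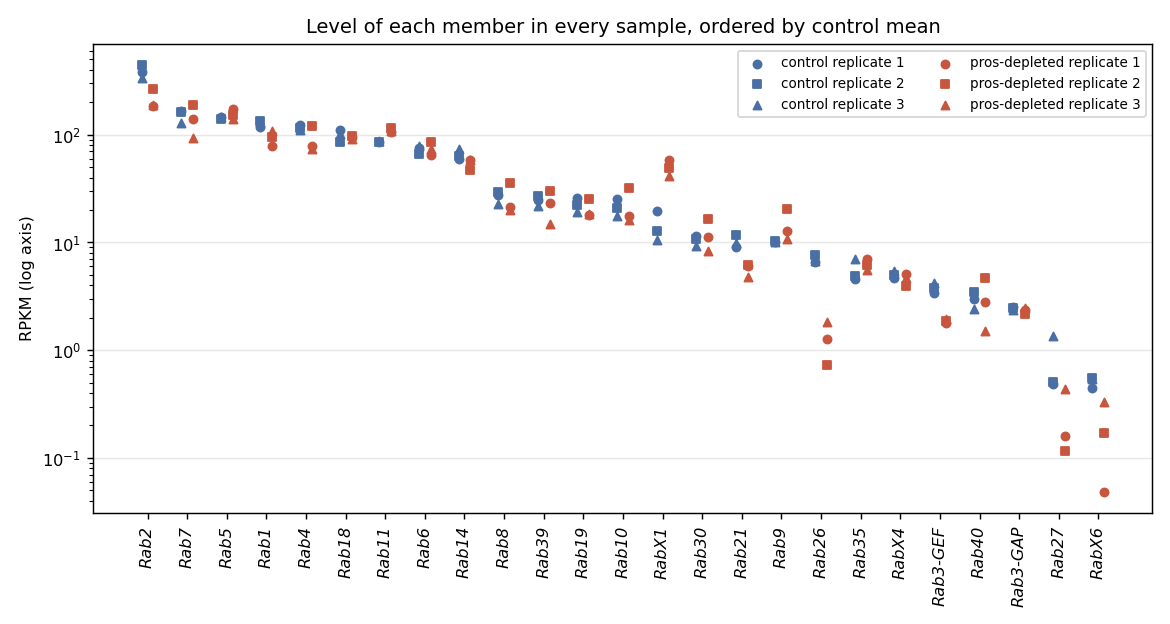
Level of each of the 25 members in RPKM (log axis) in the 3 control samples (blue) and the 3 *pros*-depleted samples (red), ordered from left to right by the control mean. *Rab2* is highest in both groups, and the groups lie apart most clearly for *RabX1*, *Rab26* and *Rab3-GEF*.

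Upon *pros* depletion, *Rab26* and *Rab3-GEF* fell, *RabX1* rose, and the other 22 members were not called. The call required both an adjusted p under 0.01 and a log2 fold change beyond 0.5 in either direction. Of the members, 1 was called higher, against 4.73% of all 10374 genes tested, and 2 were called lower, against 7.96%. Together these are 3 of 25 members, beside 12.7% of all genes called in either direction, so the share called among the members was near the background. At an unadjusted p under 0.05, 7 members were lower and 2 higher, beside 38.7% of all genes in either direction, and DESeq2 called 4 lower and 1 higher, beside 12.2% and 9.41% of all genes. The groups did not overlap for 11 members, 3 higher and 8 lower, beside 43.0% of all genes (20.4% higher and 22.5% lower). *Rab27* and *RabX6* are among these 8 and among the 7 lower at an unadjusted p under 0.05. Both passed the count minimum through their control samples, so their place in these counts is no support for a fall. The median log2 fold change of the members was -0.10, with quartiles of -0.44 and 0.04, beside 0.02, -0.45 and 0.50 for all genes tested. The members' median was -0.32 without *pros*-depleted replicate 2, -0.15 without control replicate 3, between -0.07 and -0.02 without any other sample and -0.01 on library size only, so its size rests on single samples. An absolute log2 fold change under 0.5 was estimated for 17 members (68.0%) and for 51.9% of all genes. The 95% interval of the log2 fold change lay within -1 and 1 for 17 members, beside 42.7% of all genes.

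**Figure D2:**
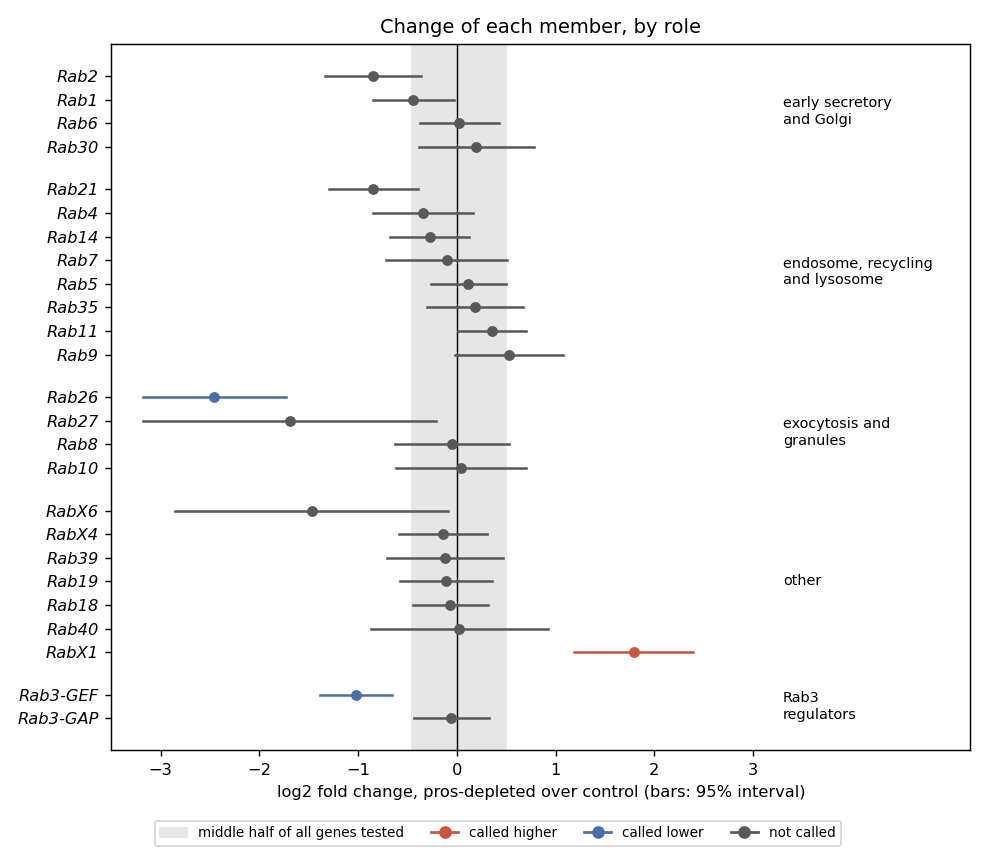
Log2 fold change of each member in *pros*-depleted over control EEs, grouped by role, with its 95% interval. The grey band runs between the quartiles of all genes tested, and of the members *Rab26* and *Rab3-GEF* (blue) were called lower and *RabX1* (red) higher.

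Among the Rabs of exocytosis and secretory granules, 1 of 4 was called lower, beside 7.96% of all genes. *Rab26* (chromosome 3L, 21318774 to 21335027, build BDGP6) had 28.8, 33.2 and 29.1 CPM in control replicates 1 to 3 and 5.48, 3.15 and 7.94 CPM in *pros*-depleted replicates 1 to 3. All *pros*-depleted samples lay far below all control samples. Its log2 fold change was -2.46 (standard error 0.314, edgeR quasi-likelihood, BH-adjusted p = 0.00115), a level 5.49-fold lower. It was called in all 15 alternatives tried, with estimates from -2.80 to -2.17. Those that only moved a threshold of the same fit could not have changed this call. The gene spans 16254 bp, has 6 annotated transcripts and encodes a protein of up to 410 residues, longer than any other Rab GTPase among the members. The non-coding gene *CR46068*, on the opposite strand, overlaps its exons by 200 bp.

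*Rab27* (chromosome X, 1473884 to 1476974) had 0.755, 0.785 and 2.13 CPM in control and 0.251, 0.183 and 0.689 CPM in *pros*-depleted samples. These rest on 8, 5 and 21 counts in the *pros*-depleted samples. The groups did not overlap, but the log2 fold change of -1.69 had a 95% interval from -3.17 to -0.21 and was not called (standard error 0.644, edgeR, BH-adjusted p = 0.0901). The estimate was -1.03 without control replicate 3 and -2.46 without *pros*-depleted replicate 3, the samples in which *Rab27* was highest in each group.

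*Rab8* and *Rab10*, a Rab of polarised secretion, were not called, with log2 fold changes of -0.04 (95% interval -0.62 to 0.53) and 0.04 (-0.61 to 0.70). *Rab10* had 59.5, 49.1 and 41.3 CPM in control and 41.4, 74.9 and 38.1 CPM in *pros*-depleted samples. *Pros*-depleted replicate 2 was above all control samples and the others were within or below them.

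*Rab3*, the Rab of regulated vesicle release that the member rule leaves out, had 88.6 RPKM in control and 37.8 RPKM in *pros*-depleted EEs on average. It was itself called lower, without overlap (log2 fold change -1.23, standard error 0.177, edgeR, BH-adjusted p = 0.00200). In control samples *Rab26* stood to *Rab3* as 0.0794, 0.0780 and 0.0790 to 1 in RPKM, and in *pros*-depleted samples as 0.0384, 0.0170 and 0.0478 to 1. *Rab26* was thus lower against *Rab3* in every *pros*-depleted sample than in any control sample (two-sided exact permutation test on the ratio, p = 0.1, the smallest that 3 samples against 3 allow). The ratio was 1 of 6 computed between members or relatives, and 0.1 does not pass 0.05.

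*Rab3-GEF* (chromosome X, 15089682 to 15113744), the exchange factor that activates Rab3, had 29.5, 32.5 and 36.8 CPM in control samples and 15.5, 16.4 and 16.8 CPM in *pros*-depleted samples. The *pros*-depleted samples lay close together and all below the controls. The log2 fold change was -1.02 (standard error 0.159, edgeR, BH-adjusted p = 0.00280), a level 2.03-fold lower. The call was lost without control replicate 2, without control replicate 3, without *pros*-depleted replicate 1 and without *pros*-depleted replicate 3, where the edgeR BH-adjusted p was 0.0122, 0.0130, 0.0167 and 0.0108, and under glmTreat, which tests against a fold change of 0.5 on the log2 scale (edgeR, adjusted p = 0.0153), while the estimate stayed between -1.09 and -0.90 over all alternatives. Its exons share 443 bp with *Cyp4s3* on the opposite strand.

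*Rab3-GAP* (chromosome 2L, 12058304 to 12063184), named for the opposite step, had 10.8, 10.7 and 10.2 CPM in control and 10.3, 9.49 and 10.8 CPM in *pros*-depleted samples. The groups overlapped, with a log2 fold change of -0.06 (95% interval -0.43 to 0.32).

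**Figure D3:**
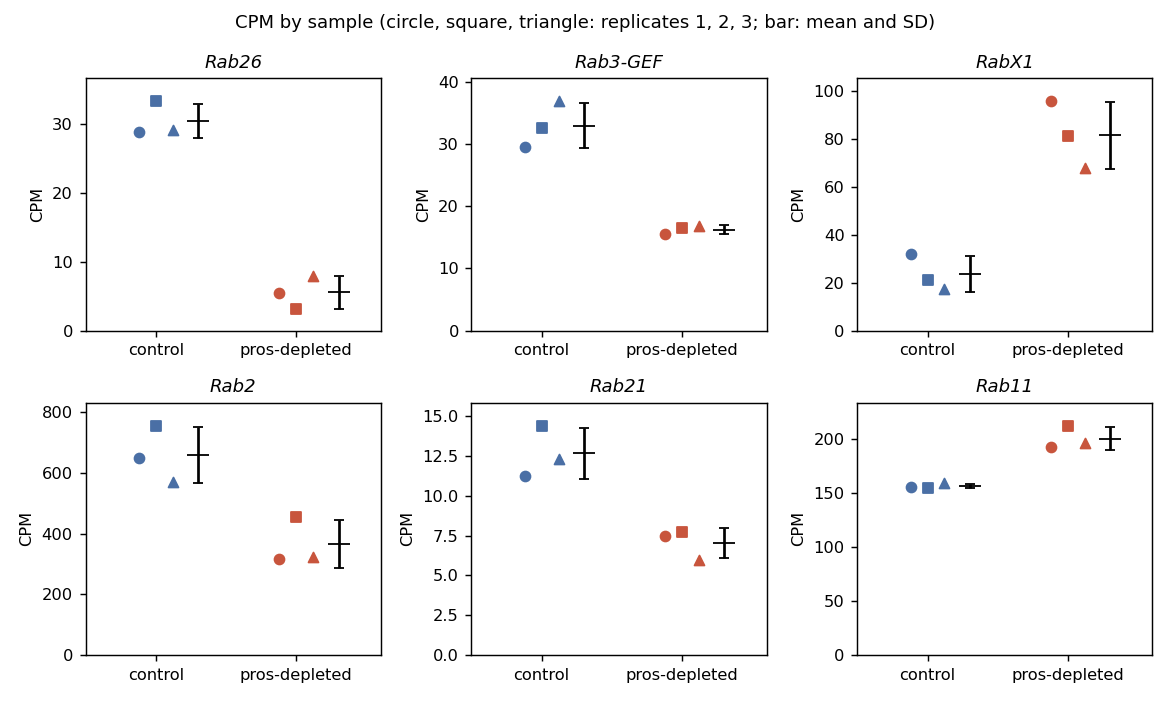
CPM of 6 members in each sample, with control in blue, *pros*-depleted in red, marker shapes for replicates 1 to 3, and the mean and SD in black. *Rab26*, *Rab3-GEF*, *Rab2* and *Rab21* are lower in all *pros*-depleted samples, and *RabX1* and *Rab11* are higher in all of them, of which only *Rab26*, *Rab3-GEF* and *RabX1* were called.

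*RabX1* (chromosome 2R, 23519839 to 23523613) was the only member called higher. It had 32.0, 21.3 and 17.5 CPM in control samples and 95.7, 81.1 and 67.8 CPM in *pros*-depleted samples. Every *pros*-depleted sample was above every control sample, and within each group replicate 1 was the highest. The log2 fold change was 1.79 (standard error 0.261, edgeR, BH-adjusted p = 0.00212), a level 3.46-fold higher, and *RabX1* moved from rank 14 to rank 10 of the 25 members in RPKM. Without control replicate 2 the estimate was 1.71 and the call was lost (edgeR, BH-adjusted p = 0.0135).

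Of the 5 progenitor markers, *Dl* and *Sox21a* were called higher, as *RabX1* was. *Dl*, the Notch ligand of intestinal stem cells, had 1761, 427 and 515 counts in control and 6436, 4344 and 5287 counts in *pros*-depleted samples. *Sox21a* had 87, 38 and 58 counts in control and 400, 442 and 271 counts in *pros*-depleted samples. The others were not called, with log2 fold changes of 1.19 for *E(spl)mbeta-HLH*, 0.55 for *esg* and -0.05 for *Su(H)*. *nub*, an enterocyte transcription factor, had 179, 39 and 96 counts in control and 854, 869 and 494 counts in *pros*-depleted samples. Of the 11 enterocyte markers, 8 had positive and 3 negative log2 fold changes, the latter being *mex1* (-1.01), *Jon99Cii* (-0.40) and *Jon99Ciii* (-0.50), and *mex1* was lower in every *pros*-depleted sample. The part of these cell types in the rise of *RabX1* was not tested.

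No early secretory or Golgi Rab was called by edgeR, of 4 members. At an unadjusted p under 0.05, 2 were lower and 0 higher, beside 38.7% of all genes in either direction, and DESeq2 called 1 lower, beside 12.2%. That gene was *Rab2* (chromosome 2R, 6696739 to 6699469), with 648, 755 and 571 CPM in control samples and 317, 455 and 324 CPM in *pros*-depleted samples. The groups did not overlap. Its log2 fold change of -0.85 (standard error 0.210, 95% interval -1.33 to -0.37) missed the threshold with edgeR (BH-adjusted p = 0.0208) and passed it with DESeq2 (adjusted p = 0.00200). Against *Rab5* in the same sample, *Rab2* stood at 2.60, 3.17 and 2.28 to 1 in RPKM in control and at 1.06, 1.75 and 1.35 to 1 in *pros*-depleted samples, again without overlap (exact permutation test, two-sided, p = 0.1, the smallest possible). Against *Rab1* it stood at 3.23, 3.29 and 2.55 to 1 in control and at 2.33, 2.82 and 1.75 to 1 in *pros*-depleted samples, and here the groups overlapped (exact permutation test, two-sided, p = 0.2).

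*Rab1* (chromosome 3R, 21266029 to 21269060) had 211, 242 and 236 CPM in control and 143, 170 and 195 CPM in *pros*-depleted samples. It was lower in each *pros*-depleted sample than in any control (log2 fold change -0.44, standard error 0.178, edgeR, BH-adjusted p = 0.107). The non-coding gene *CR45798*, on the opposite strand, overlaps its exons by 510 bp, or 28.3% of their length. *Rab6* and *Rab30*, also of the Golgi, had log2 fold changes of 0.03 (95% interval -0.38 to 0.43) and 0.20 (-0.38 to 0.78), and their samples overlapped.

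Of the 8 members grouped here as endosomal, recycling or lysosomal Rabs, 0 were called by edgeR. *RabX1*, the member called higher, was grouped with the Rabs of other or little-studied function and is not counted here. At an unadjusted p under 0.05, 1 was lower and 1 higher, beside 38.7% of all genes in either direction, and DESeq2 called 1 lower, beside 12.2%. *Rab5* (chromosome 2L, 2359142 to 2365273) had 458, 438 and 461 CPM in control and 551, 479 and 441 CPM in *pros*-depleted samples. The groups overlapped and the log2 fold change was 0.12 (standard error 0.164, edgeR, BH-adjusted p = 0.644), with a 95% interval from -0.26 to 0.49.

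*Rab7* (chromosome 3R, 23993008 to 23995452) had 284, 275 and 216 CPM in control and 240, 323 and 160 CPM in *pros*-depleted samples. The *pros*-depleted samples spanned the controls on both sides (log2 fold change -0.10, standard error 0.266, edgeR, BH-adjusted p = 0.813). *Rab4* (chromosome 2R, 17573462 to 17574979) had 161, 153 and 145 CPM in control and 104, 160 and 97.6 CPM in *pros*-depleted samples. Here *pros*-depleted replicate 2 was level with the controls and the other replicates were below them, and the log2 fold change was -0.34 (standard error 0.219, edgeR, BH-adjusted p = 0.285).

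*Rab21* (chromosome X, 23012140 to 23013409), which in mammals directs the traffic of integrins through early endosomes, had 11.3, 14.4 and 12.3 CPM in control and 7.45, 7.73 and 5.97 CPM in *pros*-depleted samples. All *pros*-depleted samples were below the controls. The log2 fold change was -0.85 (standard error 0.196, edgeR, BH-adjusted p = 0.0157), and DESeq2 called it lower (adjusted p = 0.00319).

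*Rab11* (chromosome 3R, 21111408 to 21116146) had 156, 154 and 158 CPM in control samples, the tightest of the abundant members, and 192, 212 and 195 CPM in *pros*-depleted samples. It was higher in each *pros*-depleted sample, but the log2 fold change of 0.36 was under 0.5 and did not pass the test (standard error 0.151, edgeR, BH-adjusted p = 0.122). *Rab11* and *Rab4*, both of recycling, stood to each other as 0.703, 0.730 and 0.793 to 1 in RPKM in control and as 1.34, 0.961 and 1.45 to 1 in *pros*-depleted samples. *Rab11* was thus the lower of this pair in every control sample and the higher in *pros*-depleted replicates 1 and 3 (exact permutation test on the ratio, two-sided, p = 0.1, the smallest possible).

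*Rab9*, of transport from late endosomes to the Golgi in mammals, had 16.1, 16.5 and 16.3 CPM in control and 20.5, 32.5 and 17.5 CPM in *pros*-depleted samples. It was higher in each of the latter, with a log2 fold change of 0.53 that was not called (standard error 0.239, edgeR, BH-adjusted p = 0.143) and was 0.23 without *pros*-depleted replicate 2. *Rab14* had a log2 fold change of -0.28 (95% interval -0.67 to 0.12) with no overlap, and *Rab35*, of endocytic recycling, one of 0.18 (-0.30 to 0.67) with overlap.

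The Rabs left, of other or little-studied function were *Rab18*, *Rab19*, *Rab39*, *Rab40*, *RabX4* and *RabX6*. *RabX6* had 23, 20 and 24 counts in control and 2, 6 and 13 counts in *pros*-depleted samples, the first of these under the floor of 3 counts. Its log2 fold change of -1.47 (standard error 0.601, 95% interval -2.85 to -0.09) was not called by edgeR (BH-adjusted p = 0.110). The estimate was -0.997 without *pros*-depleted replicate 1 and -2.22 without *pros*-depleted replicate 3. Its exons share 466 bp, or 36.2% of their length, with *Vti1* on the opposite strand. The other 5 had log2 fold changes from -0.14 for *RabX4* to 0.02 for *Rab40*, and their samples overlapped between the groups. The interval was narrowest for *Rab18* (-0.44 to 0.31) and widest for *Rab40* (-0.87 to 0.92), which had 5.13, 5.96 and 4.14 CPM in control and 4.79, 8.09 and 2.62 CPM in *pros*-depleted samples. *RabX4* shares 131 bp with *CG31357* on the same strand.

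The 23 Rab GTPases summed to 1434, 1462 and 1334 RPKM in control and to 1168, 1402 and 1086 RPKM in *pros*-depleted samples. The mean was 1410 ± 67.2 RPKM (SD, n = 3) and 1219 ± 164 RPKM (SD, n = 3), with *pros*-depleted replicate 2 within the control range. As a share of all counts the Rab GTPases took 0.252%, 0.251% and 0.235% in control and 0.232%, 0.242% and 0.225% in *pros*-depleted samples, and these overlapped too.

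Within this sum the makeup differed. *Rab2* made up 26.4%, 30.2% and 25.0% of it in control and 15.9%, 19.0% and 17.4% in *pros*-depleted samples. The early secretory and Golgi Rabs together took 40.6%, 44.7% and 41.4% in control and 29.1%, 32.9% and 35.0% in *pros*-depleted samples, and the endosomal Rabs 42.1%, 40.6% and 42.8% in control and 50.1%, 47.1% and 45.6% in *pros*-depleted samples. Thus the endosomal Rabs had about the same share as the Golgi Rabs in control EEs and the larger share in each *pros*-depleted sample. *RabX1* was counted in neither of these groups. The summed level of the endosomal Rabs itself overlapped, at 1170 to 1212 CPM in control and 1044 to 1323 CPM in *pros*-depleted samples. *Rab11* went from 6.12% ± 0.380 (SD, n = 3) to 9.10% ± 0.793 (SD, n = 3), and *RabX1* from 1.01% ± 0.301 (SD, n = 3) to 4.09% ± 0.778 (SD, n = 3). The Rabs of exocytosis took 3.94% ± 0.270 (SD, n = 3) and 3.97% ± 0.802 (SD, n = 3) in control and *pros*-depleted samples, most of it from *Rab8* and *Rab10*. Shares add up to 100%, so a lower share of *Rab2* raises those of the others by construction.

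**Figure D4:**
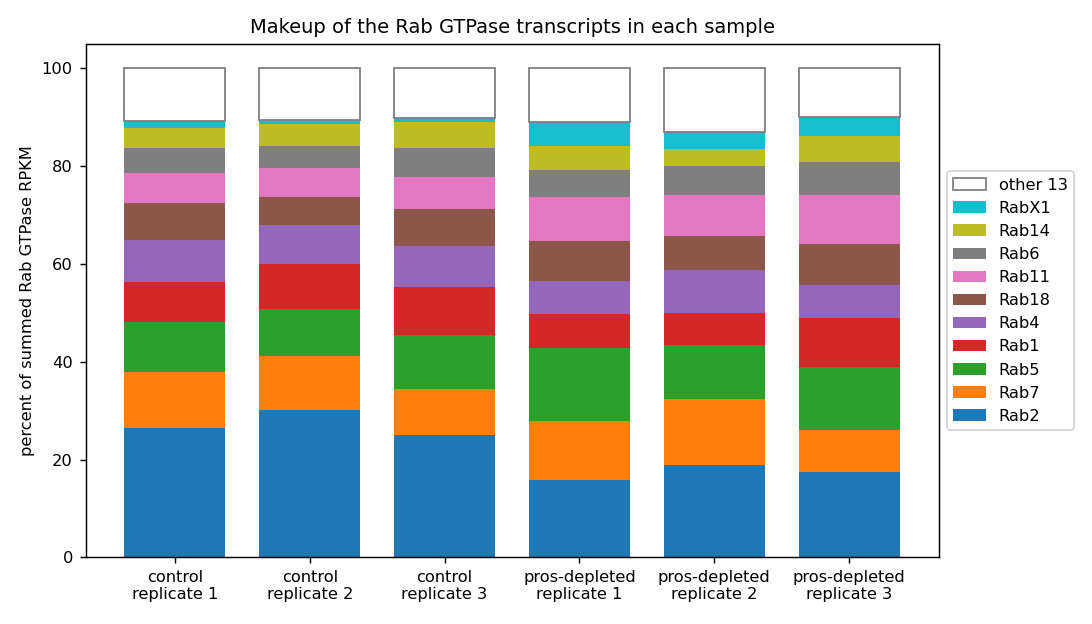
Percent of the summed RPKM of the 23 Rab GTPases taken by each gene, for each of the 6 samples (each bar adds to 100%). *Rab2* takes 25.0% to 30.2% in control and 15.9% to 19.0% in *pros*-depleted samples, while *Rab11* and *RabX1* take more in the latter.

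*Pros*-depleted replicate 2 stood apart for several members. It was the highest of the *pros*-depleted samples for 14 of 25 members, beside 38.1% of all genes tested, and the highest of all 6 samples for 9 members, beside 21.2% of all genes. *Rab8* had 63.4, 67.5 and 53.1 CPM in control and 49.7, 82.8 and 45.9 CPM in *pros*-depleted samples, and *Rab39* 35.1, 38.3 and 30.8 CPM and 32.5, 42.6 and 21.0 CPM. In both, this replicate was above every control and *pros*-depleted replicate 3 was below every control. The scaling factor of *pros*-depleted replicate 2 was 0.948, against 1.06 and 1.12 in the other *pros*-depleted samples. Without *pros*-depleted replicate 2, the log2 fold changes of *Rab7*, *Rab8*, *Rab10*, *Rab39* and *Rab40* were -0.36, -0.35, -0.32, -0.37 and -0.44, and none was called (edgeR, BH-adjusted p from 0.203 to 0.375). Those of *Rab4* and *Rab2* were -0.59 and -1.03, also not called (edgeR, BH-adjusted p = 0.0439 and 0.0123). Some estimates moved the other way, such as *Rab26* to -2.17 and *Rab14* to -0.17.

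Genes that act on or with Rab proteins were followed as a further list of 96 symbols, of which 75 were in the table and 74 were tested. By edgeR, 2 were called lower and 0 higher, beside 7.96% and 4.73% of all genes, with a median log2 fold change of -0.08. At an unadjusted p under 0.05, 10 were lower and 6 higher, beside 38.7% of all genes in either direction, and DESeq2 called 2 lower and 2 higher, beside 12.2% and 9.41%. Each of these counts was a smaller share of the list than of all genes. *Rim*, an effector of Rab3 at release sites, had 248, 235 and 312 CPM in control and 97.5, 85.3 and 104 CPM in *pros*-depleted samples, a log2 fold change of -1.47 (standard error 0.185, edgeR, BH-adjusted p = 0.00106) with no overlap. *CG12241*, listed among the GAPs, had 40.4, 39.1 and 26.8 CPM in control and 14.8, 16.2 and 13.1 CPM in *pros*-depleted samples. Its log2 fold change was -1.27 (standard error 0.205, edgeR, BH-adjusted p = 0.00338). *Rim* kept its call in each fit without 1 sample, and *CG12241* lost it without control replicate 1, control replicate 2, *pros*-depleted replicate 1 or *pros*-depleted replicate 3.

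*Rph*, the rabphilin that binds active Rab3, had 231, 299 and 260 CPM in control and 137, 167 and 199 CPM in *pros*-depleted samples. The groups did not overlap, but its log2 fold change of -0.65 was not called (standard error 0.200, edgeR, BH-adjusted p = 0.0451).

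Of 4 genes for the prenylation and recycling that all Rabs share, 0 were called by edgeR or DESeq2, with 1 higher and 0 lower at an unadjusted p under 0.05 (38.7% of all genes in either direction). *Gdi*, which extracts inactive Rabs from membranes, had 439, 430 and 609 CPM in control and 384, 281 and 504 CPM in *pros*-depleted samples, and the groups overlapped (log2 fold change -0.34, standard error 0.255, edgeR, BH-adjusted p = 0.363). *Rep*, which presents new Rabs for prenylation, had 17.6, 10.9 and 12.3 CPM in control and 11.9, 12.5 and 11.1 CPM in *pros*-depleted samples, with overlap (log2 fold change -0.20, standard error 0.217, edgeR, BH-adjusted p = 0.535). Of the 19 genes tested that were listed as GEFs, besides *Rab3-GEF*, 0 were called by edgeR. These are single genes and need not be separate exchange factors. At an unadjusted p under 0.05, 3 were lower and 2 higher (38.7% of all genes in either direction). Among them DESeq2 called *Crag* higher (log2 fold change 1.01, edgeR BH-adjusted p = 0.0405). Of the 17 genes listed as GAPs, DESeq2 called *GAPcenA* higher (log2 fold change 0.70, edgeR BH-adjusted p = 0.0196), as did edgeR on library size only. *Crag* and *GAPcenA* were chosen for mention after their values were seen.

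**Figure D5:**
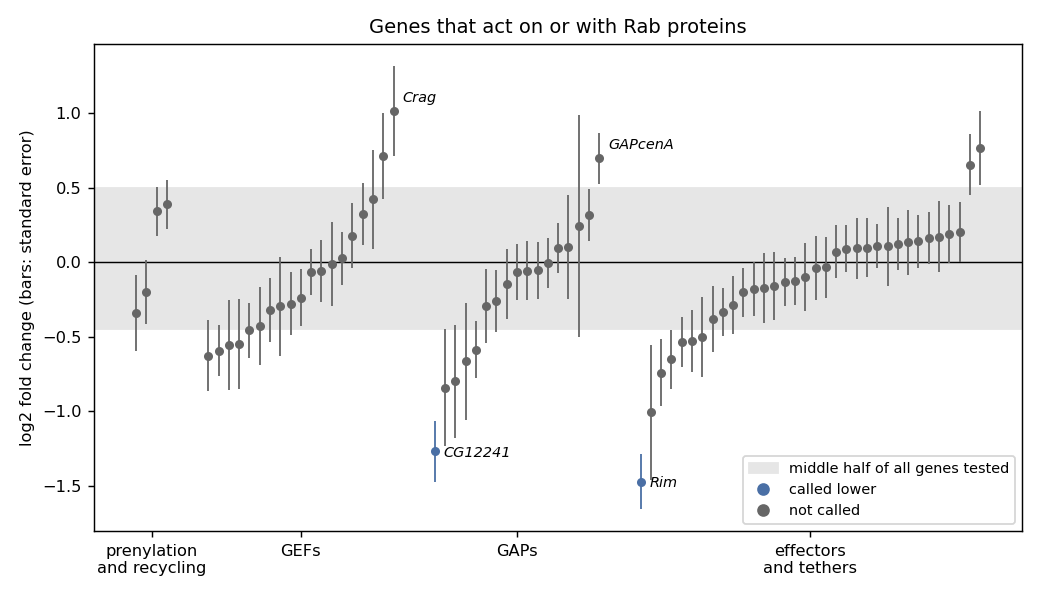
Log2 fold change of 74 genes listed under prenylation and recycling, GEFs, GAPs, or effectors and tethers of Rab proteins, with standard errors. The grey band runs between the quartiles of all genes tested, and only *CG12241* and *Rim* (blue) were called lower.

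*ltd* (*Rab32*), the Rab left out by its name, had 88.5, 84.3 and 64.2 CPM in control and 73.0, 85.7 and 91.9 CPM in *pros*-depleted samples. The groups overlapped and its log2 fold change of 0.08 was not called.

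The 25 members lie on 5 chromosome arms, 6 on 2L, 3 on 2R, 4 on 3L, 4 on 3R and 8 on X. All had an entry in the Ensembl annotation of the same assembly, 24 of them with the same start and end as in the count table. The exception was *Rab3-GEF*, a called member. The called members lie on 3L, X and 2R. Exons of 8 members share bases with another gene, and in 2 members, *RabX6* and *Rab1*, the shared part is over 10% of the exon length.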

How the data were processed

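EEs were sorted from 3 control and 3 *pros*-depleted samples, and their polyA RNA was amplified and read as 50 bp single ends. The authors mapped reads to BDGP6, obtained counts per gene with featureCounts 1.6.3 (also in the submitters' processing notes) and deposited raw counts of 17558 genes with the exon length. The aligner, strand setting and treatment of multiply mapped reads are not given in the sources used here, so genes with shared exons are uncertain. The deposited exon length, given by the authors in bp, was used for RPKM. Evenness of coverage after amplification was not tested.

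The counts entered edgeR 4.0.16 in R 4.3.3. A minimum of 10 counts in 3 samples left 10374 genes, TMM factors scaled the libraries, and edgeR's quasi-likelihood F-test was run on the groups, its p-values adjusted over all genes (Benjamini-Hochberg, BH). Thresholds (adjusted p under 0.01, absolute log2 fold change over 0.5) follow the study's methods. Dividing a log2 fold change, without its sign, by the square root of F gave its standard error. Intervals use the test's degrees of freedom. Both count models were tested on simulated data. Alternatives were DESeq2 1.42.0, RLE factors, library size only, other filters and thresholds, glmTreat, a replicate block and each sample left out. Tables and figures used Python 3.11.15, pandas 2.3.3 and matplotlib 3.10.9.

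Samples held 27183747 to 40766059 counts, and the floor of 3 counts is one of counting error alone, because reads of amplified RNA are no independent molecules. The labels number separate samples but do not tie them to separate crosses or days, so p-values measure the spread between these samples, which may be technical. Members and lists were chosen with earlier results of these data known. Full values are given for the called members, the 5 with the highest control RPKM, the 3 with the largest uncalled log2 fold changes, and *Gdi*, *Rep* and the called regulators. *Rab8*, *Rab9*, *Rab10*, *Rab11*, *Rab21*, *Rab39*, *Rab40*, *Rab3-GAP*, *Rph* and *ltd* were given values after these had been seen.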

Additional observations from a re-analysis of the deposited data

How the results depend on the processing

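The members called lower numbered 4 with DESeq2 and 4 at an adjusted p under 0.05 (*Rab2* and *Rab21* joined *Rab26* and *Rab3-GEF* in each), 1 with glmTreat, and 1 to 2 over the fits that left out each sample. The member called higher numbered 1 in all alternatives except without control replicate 2, a range of 0 to 1. The regulators called lower numbered 6 at an adjusted p under 0.05, 1 with glmTreat and 1 to 3 with a sample left out, and those called higher 2 with DESeq2, 3 at an adjusted p under 0.05 and 1 with library size only, and 0 in each fit without a sample. Over all genes, 976 were higher and 1267 lower with DESeq2, 294 and 540 with glmTreat, 1184 and 1519 at an adjusted p under 0.05, and 188 to 317 and 413 to 596 with a sample left out, where fewer samples were fitted. The *pros*-depleted over control ratio of the summed Rab level was 0.864 and ranged from 0.799 to 0.911 with a sample left out. On library size only it was 0.931, outside that range and nearer to no change.

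Library size only moved the median of all genes by 0.12 on the log2 scale and the sign of 3 uncalled members, *Rab3-GAP*, *Rab8* and *Rab18*. Leaving out *pros*-depleted replicate 2 changed the sign of 5 uncalled members. *Rab27* and *RabX6* were not tested with a mean of at least 50 counts, and their few counts limit their intervals. With the replicate block, 1 member was higher and 2 lower, 0 regulators higher and 2 lower, and 346 and 643 of all genes. Deviations of same-numbered samples correlated at -0.162, 0.243 and 0.106, not over 0.1 in every pair. Not every sample correlated best with its own number, and the main fit did not treat the numbers as pairs. So few pairs cannot show whether same-numbered samples shared a day or batch.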
